A study of Mus musculus with 48 samples.

Results

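Cyp4a10, Cyp4a14, Cyp4a31, Acot1, Acot2, Acot3 and Acot4 are mouse liver genes of fatty acid handling, 7 of the 13542 genes tested. They were taken as a given list, and each was represented by the probe set that carries its symbol alone and has the highest mean over the 48 arrays; all 7 had 1 such probe set and passed the filter on low values. RNA came from the median lobe of the liver of F1 mice aged 3 weeks, male or female, with 8 arrays in each of 6 groups. Sires received either control or low-protein food between week 3 and week 12 of life. The offspring were labelled wild-type, ATF7+/- or ATF7+/+, where ATF7 is a chromatin-binding factor related to ATF2 that responds to stress. The labels state neither how ATF7+/+ offspring differ from wild-type offspring nor the sex of each animal, and the diet was given to the sires only. The question the design poses for these genes is whether the diet of the sire, the genotype label, or both together went with a different level in the offspring. All levels are log2 expression values, on which a difference of 1 is a factor of 2.

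Cyp4a enzymes sit in the endoplasmic reticulum and hydroxylate fatty acids at the end of the chain, the opening step of omega-oxidation. Acyl-CoA thioesterases split activated fatty acids into the free acid and coenzyme A: Acot1 in the cytosol, Acot2 in mitochondria, and Acot3 and Acot4 in peroxisomes. In rodent liver both families are textbook targets of PPARA, the nuclear receptor that fatty acids activate during fasting, and PPARA binds with its partner RXR to direct repeats of the half-site AGGTCA. The Acot genes lie next to each other as recent copies of one another, as do the Cyp4a genes, so a probe set may also catch RNA of a close copy; this was not tested.

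The promoters of Acot3 and Acot4 are shown because these genes varied together more closely than any other pair of the 7. The windows run from 250 bases before the start to 30 after it, 5′ to 3′ on the plus strand, from RefSeq on GRCm38.p6. Acot3 is chr12:84051894-84052173 and Acot4 is chr12:84038129-84038408. Capitals mark TGACCT, which is the half-site AGGTCA read on the other strand, and the E-box CACGTG, the site that the clock factors CLOCK and BMAL1 are known to bind.
Acot3: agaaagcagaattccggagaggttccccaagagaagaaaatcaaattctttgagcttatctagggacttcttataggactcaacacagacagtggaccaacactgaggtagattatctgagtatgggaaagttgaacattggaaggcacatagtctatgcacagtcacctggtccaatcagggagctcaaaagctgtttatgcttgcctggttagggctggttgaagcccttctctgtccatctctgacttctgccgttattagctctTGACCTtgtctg
Acot4: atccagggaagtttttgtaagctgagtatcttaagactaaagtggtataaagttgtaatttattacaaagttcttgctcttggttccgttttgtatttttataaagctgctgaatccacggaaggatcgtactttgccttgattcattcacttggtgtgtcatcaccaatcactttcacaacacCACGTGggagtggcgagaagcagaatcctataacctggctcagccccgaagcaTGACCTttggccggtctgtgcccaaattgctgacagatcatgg

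The half-site stood 19 bases after the start of Acot3 and 13 bases before the start of Acot4, and the E-box 66 bases before the start of Acot4. RefSeq lists a second start of Acot3, from which the same half-site stood 12 bases downstream. Both strands were searched over 300 bases, 250 before and 50 after the start, and no match overlapped another. Only exact matches to the letters given were counted, so imperfect sites, among them imperfect PPAR repeats, were not searched for. The half-site occurred in 16.0% of 27025 RefSeq promoter windows of that length and the E-box in 7.24%. The PPAR direct repeat, AGGTCA repeated on the same strand after 1 base (0.0444% of windows), the D-box TTATGTAA (0.955%) and the cAMP response element TGACGTCA (1.88%), the class of site that factors of the ATF2 family can bind, had no match in the windows of Acot1, Acot2, Acot3 or Acot4. Without gaps, the Acot3 and Acot4 windows shared 24.0% of their 300 bases. Of the 7 genes, 4 had a window in the table; Cyp4a10, Cyp4a14 and Cyp4a31 were not matched.

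A pair of arrays from wild-type offspring of control-diet sires (replicates 4 and 5) and a pair from ATF7+/+ offspring of control-diet sires (replicates 7 and 8) were near-identical and were counted as 1 sample each. This left 46 samples, with n = 7 in those groups and n = 8 in the other 4. The arrays fell into an array set A (18 arrays) and an array set B (30 arrays) by probe sets that name no gene, a division absent from the labels; each group had 3 A and 5 B arrays. The liver label fitted its markers: the 9 hepatocyte markers measured of 10 had a summed level, as log2, between 15.92 and 16.19 in every sample. Atf7 itself was lower in ATF7+/- than in ATF7+/+ offspring by a log2 difference of -0.37 ± 0.06 (SE; limma adjusted p = 0.00124), and against wild-type the difference of -0.20 ± 0.06 did not pass (limma adjusted p = 0.242); whether the probe set covers the altered part of the gene is not stated. The level of 3 Y-linked genes was high in 32 samples and low in 14.

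None of the 7 genes passed the test between sire diets in any genotype label. In wild-type offspring 0 of 7 passed, against 3.6% of all genes tested; in ATF7+/- offspring 0 of 7, against 0%; and in ATF7+/+ offspring 0 of 7, against 0.00738%. At an unadjusted limma p under 0.05 these counts were 0, 1 and 0 of 7, where all genes gave 2153, 178 and 621. The median diet difference of the 7 genes was 0.10, 0.23 and 0.12, beside a median over all genes of 0.00, 0.00 and 0.01. The differences were positive for 6 of 7 genes with the wild-type label, for 7 of 7 with ATF7+/- and for 4 of 7 with ATF7+/+, and 51.1%, 51.9% and 52.5% of all genes were positive there. These genes share their samples and several move together, so the counts describe 1 set of animals and are not 7 separate results.

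**Figure D1:**
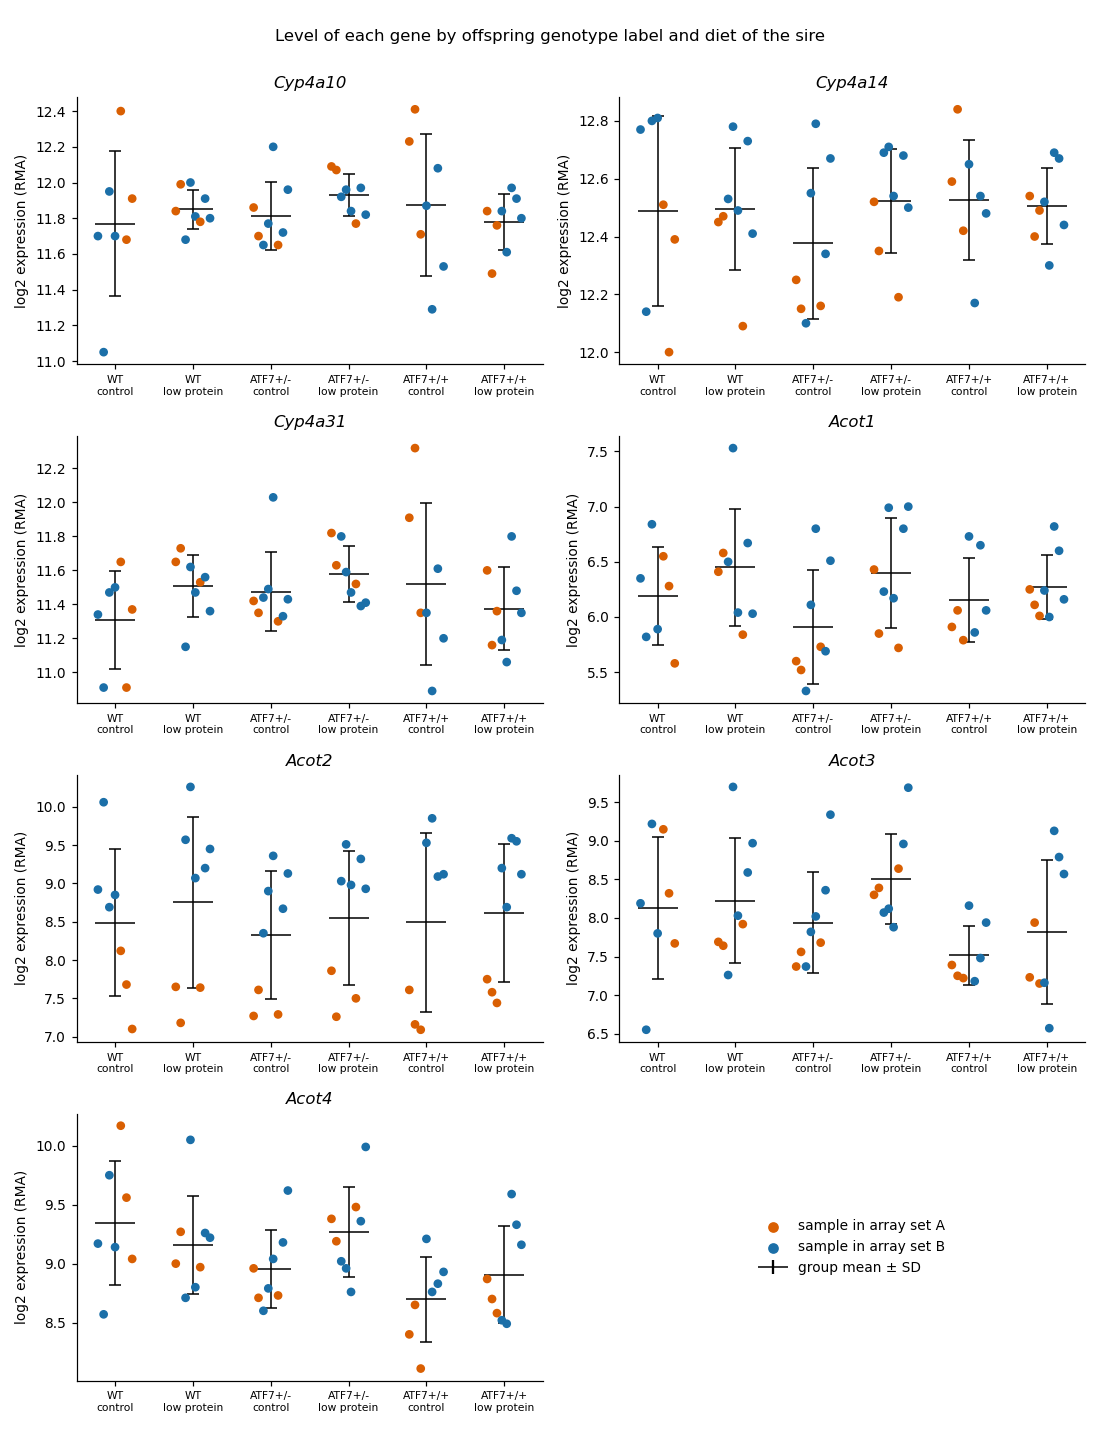
Log2 expression (RMA) of each of the 7 genes, 1 panel per gene, for the 46 samples in 6 groups of genotype label and sire diet; points are samples coloured by array set, and bars are the group mean ± SD. In every panel the groups overlap, and in the Acot2 panel set A (7.09 to 8.12) lies wholly below set B (8.35 to 10.26).

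Cyp4a14 was the steadiest of the 3 omega-hydroxylases. Its level ran from 12.00 through a median of 12.51 to 12.81 in wild-type offspring of control-diet sires (n = 7) and from 12.09 through 12.48 to 12.78 after low-protein sires (n = 8). The groups covered almost the same range. The diet difference was 0.01 ± 0.12 (SE; limma adjusted p = 0.991), with a 95% interval from -0.23 to 0.24, or folds from 0.854 to 1.18. In ATF7+/- offspring the difference was 0.15 ± 0.11 and in ATF7+/+ offspring -0.02 ± 0.12, neither of which passed (limma adjusted p = 1 in both).

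Cyp4a10 had its lowest sample of all in wild-type offspring of control-diet sires, where it ran from 11.05 through 11.70 to 12.40. After low-protein sires it ran from 11.68 through 11.82 to 12.00, inside that range. The difference was 0.08 ± 0.13 (SE; limma adjusted p = 0.836), with a 95% interval from -0.18 to 0.34. The lowest sample, replicate 2, was also lowest of its group in Acot3 and Acot4, tied for lowest in Cyp4a31, and highest in Acot2. Without it the wild-type differences were -0.04 for Cyp4a10, -0.05 for Cyp4a14 and -0.17 for Acot3, all with the sign turned, and 0.53 in place of 0.26 for Acot2, with none passing in limma (adjusted p from 0.45 to 0.902 over the 7 genes).

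Cyp4a31 ran from 10.91 through 11.37 to 11.65 in wild-type offspring of control-diet sires and from 11.15 through 11.54 to 11.73 after low-protein sires. These ranges overlapped over most of their length. The diet difference was 0.20 ± 0.14 (SE; limma adjusted p = 0.537), with a 95% interval from -0.08 to 0.48. In ATF7+/+ offspring it was -0.14 ± 0.14, and the difference between these diet differences, 0.35 ± 0.20, did not pass (limma adjusted p = 0.817). A further probe set shared by Cyp4a32, Cyp4a31 and Cyp4a10 had group means from 12.01 to 12.15. It correlated with Cyp4a10 at r = 0.82 and with Cyp4a31 at r = 0.73 (n = 46). With Cyp4a14, whose symbol it does not carry, r was 0.81.

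The group means of the 3 Cyp4a genes lay close together. From highest to lowest they spanned 0.16 for Cyp4a10, 0.15 for Cyp4a14 and 0.27 for Cyp4a31, and no step between neighbouring groups exceeded 0.41 of their pooled SD. Cyp4a10 was highest in ATF7+/- offspring of low-protein sires (11.93 ± 0.12, SD, n = 8) and lowest in wild-type offspring of control-diet sires (11.77 ± 0.41, SD, n = 7). Cyp4a31 had the same groups at its ends, at 11.58 ± 0.16 and 11.31 ± 0.29.

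Acot1, the cytosolic thioesterase, had the one diet difference among the 7 genes with an unadjusted p under 0.05. In ATF7+/- offspring it ran from 5.33 through 5.71 to 6.80 after control-diet sires and from 5.72 through 6.33 to 7.0 after low-protein sires (n = 8 each). The groups overlapped over most of their range, and the difference was 0.49 ± 0.22 (SE; limma adjusted p = 1), a fold of 1.40 with a 95% interval from 1.03 to 1.90. Within the array sets the ATF7+/- difference was 0.38 (set A) and 0.55 (set B). In wild-type offspring it was 0.26 ± 0.23 and in ATF7+/+ offspring 0.12 ± 0.23. The 3 low-protein groups had the highest mean levels of Acot1, at 6.45, 6.40 and 6.27, above the control groups at 6.19, 6.15 and 5.91. No step in this order exceeded 0.53 of the pooled SD.

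**Figure D2:**
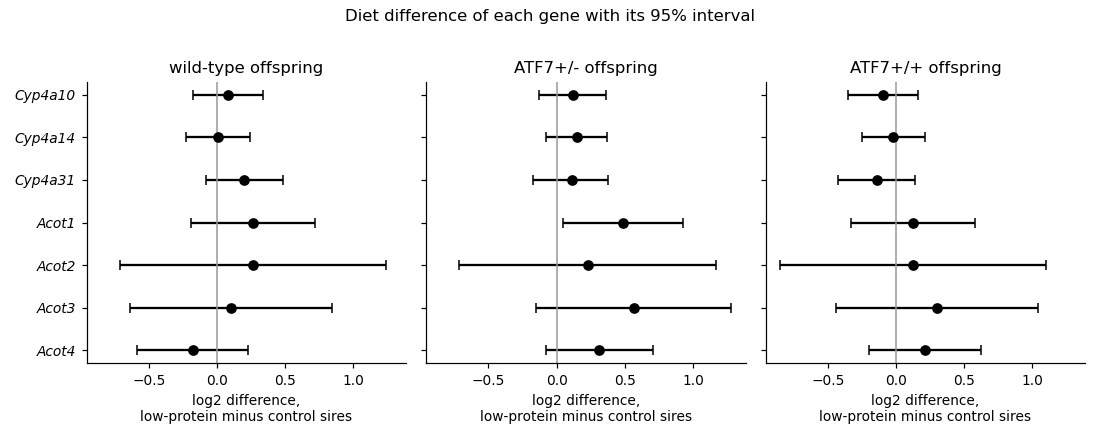
Diet difference of each gene (log2, low-protein minus control sires) in wild-type, ATF7+/- and ATF7+/+ offspring, with the 95% interval of the limma fit as bars. The interval of Acot1 in ATF7+/- offspring (0.05 to 0.93) is the one that does not reach 0, the Cyp4a intervals are narrow, and those of Acot2 are the widest in this fit, which has no term for the array set.

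Acot2, the mitochondrial thioesterase, separated the array sets without overlap. It was 7.49 ± 0.29 (SD, n = 18; 7.09 to 8.12) in set A and 9.21 ± 0.43 (SD, n = 28; 8.35 to 10.26) in set B, a difference of 1.73. Counting Acot2, 11 genes of 13542 had a set difference that large, and the median size over all genes was 0.18. The other 6 genes differed between the sets by -0.11 to 0.37. The SD of Acot2 within groups was 0.98, at the 99.7th percentile of all genes, and 0.38 within groups and sets. What the array sets are is not stated, and samples and array handling cannot be told apart.

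Diet differences of Acot2 were 0.26 ± 0.48 for wild-type, 0.23 ± 0.47 for ATF7+/- and 0.12 ± 0.48 for ATF7+/+ offspring (SE), and none passed (limma adjusted p = 0.864, 1 and 1). The wild-type interval reached from -0.71 to 1.24 in this fit, which has no term for the array set. With the set as a block the differences were 0.17 ± 0.19, 0.23 ± 0.18 and 0.03 ± 0.19 (SE; limma adjusted p = 0.625, 0.998 and 0.986), so the errors were smaller and none passed. Within set A alone the wild-type difference was -0.14 ± 0.22 (SE; limma adjusted p = 0.691). With the set as a block the widest wild-type error of the 7 genes was that of Acot3, at 0.35 (SE).

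Acot3 and Acot4, the peroxisomal thioesterases, spread widely within every group. In wild-type offspring Acot3 ran from 6.55 through 8.19 to 9.22 after control-diet sires and from 7.26 through 7.97 to 9.70 after low-protein sires. In ATF7+/- offspring it ran from 7.37 through 7.75 to 9.34 and from 7.88 through 8.35 to 9.69. In ATF7+/+ offspring it ran from 7.18 through 7.39 to 8.16 and from 6.57 through 7.59 to 9.13. All 6 groups overlapped, and from the lowest to the highest sample Acot3 spanned a fold of 8.88. Its diet differences were 0.10 ± 0.37, 0.57 ± 0.35 and 0.30 ± 0.37 (SE; limma adjusted p = 0.939, 1 and 1).

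Acot4 ran from 8.57 through 9.17 to 10.17 in wild-type offspring of control-diet sires and from 8.71 through 9.11 to 10.05 after low-protein sires. In ATF7+/- offspring it ran from 8.60 through 8.88 to 9.62 and from 8.76 through 9.27 to 9.99. In ATF7+/+ offspring it ran from 8.11 through 8.76 to 9.21 and from 8.49 through 8.79 to 9.59. The groups overlapped here too. The diet differences were -0.18 ± 0.20, 0.31 ± 0.20 and 0.21 ± 0.20 (SE; limma adjusted p = 0.74, 1 and 1), and Acot4 was the only one of the 7 below 0 in wild-type offspring.

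Whether the diet difference depended on the genotype label was tested directly. Between wild-type and ATF7+/- offspring 0 of 7 genes passed, against 0.635% of all genes; between wild-type and ATF7+/+ 0 of 7, against 0.0222%; and between ATF7+/+ and ATF7+/- 0 of 7, against 0%. No unadjusted p of the 7 genes was under 0.05 in these comparisons, where all genes gave 1253, 956 and 380. Acot4 had the largest difference between wild-type and ATF7+/- offspring, -0.50 ± 0.28 (SE; limma adjusted p = 0.633), and Acot3 followed at -0.47 ± 0.51 (limma adjusted p = 0.904). These comparisons share groups with the diet comparisons above.

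Averaged over the diets, the genotype labels differed most for Acot4 and Acot3. Acot4 was at a log2 difference of -0.45 ± 0.14 in ATF7+/+ against wild-type offspring (SE; limma adjusted p = 0.149), a fold of 0.732 with a 95% interval from 0.599 to 0.895, and Acot3 at -0.51 ± 0.26 (limma adjusted p = 0.421). In ATF7+/- against ATF7+/+ offspring Acot3 was at 0.56 ± 0.26 and Acot4 at 0.31 ± 0.14 (limma adjusted p = 0.386 and 0.378). The lowest mean level of both genes was in ATF7+/+ offspring of control-diet sires, at 7.52 ± 0.38 for Acot3 and 8.70 ± 0.36 for Acot4 (SD, n = 7). The highest was in ATF7+/- offspring of low-protein sires for Acot3 (8.51 ± 0.59, SD, n = 8) and in wild-type offspring of control-diet sires for Acot4 (9.34 ± 0.53, SD, n = 7), and no step between neighbouring groups exceeded 0.55 of the pooled SD. None of these passed over all genes: 0 of 7 against 0.0222% for ATF7+/+ minus wild-type, 0 of 7 against 0.155% for ATF7+/- minus ATF7+/+, and 0 of 7 against 0.00738% for ATF7+/- minus wild-type. At an unadjusted limma p under 0.05 the counts were 1, 2 and 0 of 7, where all genes gave 1679, 1545 and 923. The Cyp4a genes, Acot1 and Acot2 differed between labels by -0.18 to 0.12.

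Split by array set, the label differences of Acot3 and Acot4 passed in set A alone; the difference between the sets was not tested. In set A Acot4 ran from 8.97 through 9.15 to 10.17 for wild-type, from 8.71 through 9.07 to 9.48 for ATF7+/-, and from 8.11 through 8.62 to 8.87 for ATF7+/+ offspring (n = 6 each), and wild-type and ATF7+/+ did not overlap. Acot3 ran from 7.64 through 7.80 to 9.15, from 7.37 through 7.99 to 8.64, and from 7.15 through 7.24 to 7.94. ATF7+/+ against wild-type was -0.78 ± 0.14 for Acot4 and -0.70 ± 0.18 for Acot3 (SE; limma adjusted p = 0.000769 and 0.00836), and 2 of 7 genes passed there. That share of 28.6% equals the 28.6% of all genes that passed in set A, so it says nothing particular about these genes. How many of all genes lacked overlap between wild-type and ATF7+/+ samples was not counted. In set B the values were -0.21 ± 0.20 for Acot4 and -0.36 ± 0.38 for Acot3 (SE; limma adjusted p = 0.966 and 0.972), and 0 of 7 passed against 0% of all genes. Acot4 there ran from 8.57 to 10.05 in wild-type and from 8.49 to 9.59 in ATF7+/+ offspring.

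In set A 3 of 7 genes also passed in ATF7+/- against ATF7+/+ offspring, against 22.8% of all genes. Acot3 was higher by 0.63 ± 0.18 and Acot4 by 0.52 ± 0.14 (SE; limma adjusted p = 0.0191 and 0.0132). Cyp4a14 was at -0.28 ± 0.10 (limma adjusted p = 0.0475), and with the level of the Y-linked genes as a covariate it was at -0.22 ± 0.10 (limma adjusted p = 0.123) and no longer passed, while Acot3 and Acot4 did. Y-linked levels were high in all 6 ATF7+/+ samples of set A, and in 4 of 6 wild-type and 4 of 6 ATF7+/- samples. With that covariate ATF7+/+ against wild-type in set A was -0.72 for Acot3 and -0.87 for Acot4 (limma adjusted p = 0.0134 and 0.000564), where 2 of 7 genes and 26.7% of all genes passed; for ATF7+/- against ATF7+/+ they were 2 of 7 and 20.6%.

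**Figure D3:**
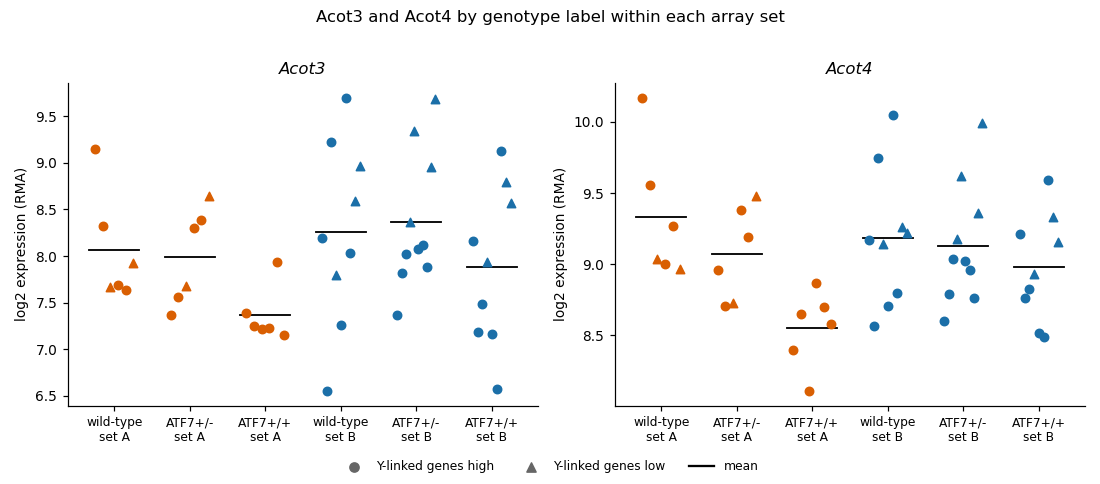
Log2 expression (RMA) of Acot3 and Acot4 by genotype label within array sets A and B; circles are samples with high and triangles with low Y-linked levels, and lines are means over both diets. In set A the ATF7+/+ samples of Acot4 (8.11 to 8.87) lie below all wild-type samples (8.97 to 10.17), and in set B the labels overlap.

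Other measures also differed between groups in set A. The summed level of the 10 Kupffer cell markers, all measured and none at 0, ran from 11.79 to 12.27 in ATF7+/+, from 12.55 to 12.94 in wild-type and from 12.35 to 12.80 in ATF7+/- offspring of set A. In set B it ran from 12.60 to 12.95, 12.28 to 13.11 and 12.61 to 13.04. In bulk liver, fewer cells of a type and less RNA per cell cannot be told apart. Dbp, a clock output factor chosen outside the naming rule, also differed between set A groups, and not by label alone. It averaged 7.79 after control-diet and 8.03 after low-protein sires in ATF7+/+ offspring, 9.53 and 7.60 in wild-type and 8.54 and 8.92 in ATF7+/- offspring (n = 3 each). In set B its averages were 8.85 and 8.92 in ATF7+/+, 8.59 and 8.57 in wild-type and 8.74 and 8.86 in ATF7+/- offspring. The part of these measures in the Acot3 and Acot4 differences was not tested.

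In set A the diet differences of Acot3 and Acot4 had opposite signs in wild-type and ATF7+/- offspring, and none of them passed. For Acot3 they were -0.63 ± 0.26 and 0.91 ± 0.26 (SE, limma adjusted p = 0.103 and 0.597). For Acot4 they were -0.51 ± 0.20 and 0.55 ± 0.20 (SE, limma adjusted p = 0.0912 and 0.709). Acot3 was 9.15, 8.32 and 7.67 in wild-type offspring of control-diet sires and 7.69, 7.64 and 7.92 after low-protein sires. In ATF7+/- offspring it was 7.37, 7.56 and 7.68 after control-diet sires and 8.30, 8.39 and 8.64 after low-protein sires. The wild-type groups overlapped and the ATF7+/- groups, of 3 samples each, did not. How many of all genes lacked overlap there was not counted. The difference between the diet differences was -1.54 ± 0.36 for Acot3 and -1.06 ± 0.28 for Acot4 (SE; limma adjusted p = 0.0353 and 0.0631), so 1 of 7 genes passed in set A, against 2.07% of all genes. With the Y-linked covariate 2 of 7 passed, against 2.54%. Arntl, the gene of BMAL1 and also chosen outside the naming rule, averaged 5.73 and 7.97 in the same wild-type groups and 7.0 and 6.20 in the ATF7+/- groups (n = 3 each). In set B its averages were 7.04 and 7.13 in wild-type and 7.01 and 7.08 in ATF7+/- offspring. The part of Arntl was not tested. In set B the Acot3 value was 0.21, of the opposite sign, and 0 of 7 passed, against 1.34% of all genes.

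Within families most pairs of genes varied together across samples, while over all 46 samples Acot2 was only loosely tied to Acot3 and Acot4. Acot3 and Acot4 correlated at r = 0.88 over 46 samples (Spearman 0.89), at 0.86 within set A and 0.94 within set B, and at 0.91 after group and set means were removed. Cyp4a10 and Cyp4a31 correlated at 0.84 (0.87 after removal), and Cyp4a10 and Cyp4a14 at 0.56 (0.85 after removal). Acot1 correlated with Cyp4a14 at 0.67, with Acot4 at 0.60 and with Acot3 at 0.59, and less with Cyp4a10 (0.41) and Cyp4a31 (0.27). After removal these values were 0.68, 0.70, 0.58, 0.62 and 0.48, in the same order. Acot2 correlated with Acot1 at 0.52 (0.42 after removal, 0.50 within set A and 0.44 within set B). With Acot3 and Acot4 it was at 0.29 and 0.23 (0.16 and 0.26 after removal). These values were 0.54 and 0.53 within set A, and 0.09 and 0.17 within set B. With the Cyp4a genes Acot2 was at 0.00 for Cyp4a10, 0.07 for Cyp4a14 and 0.07 for Cyp4a31 after removal. Close copies may share probes, and samples share array sets, so these values are descriptions.

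**Figure D4:**
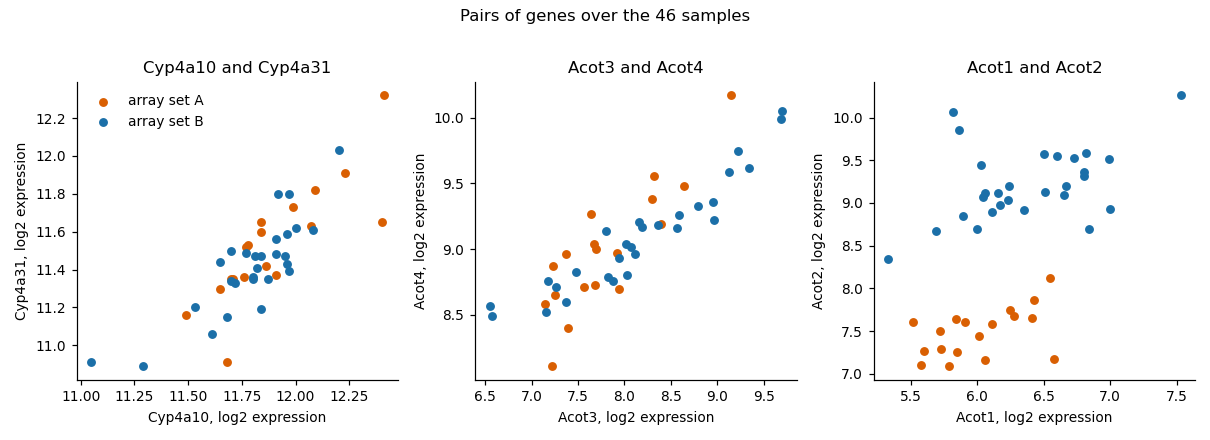
Log2 expression (RMA) of Cyp4a31 against Cyp4a10, Acot4 against Acot3, and Acot2 against Acot1 over 46 samples, coloured by array set. The Cyp4a and Acot3-Acot4 pairs form 1 band over both sets (r = 0.84 and 0.88), and the Acot1-Acot2 plot falls into 2 bands by array set.

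The genes outside the 7 whose pattern was most like theirs differed by member. Cyp2e1, a cytochrome P450 of pericentral hepatocytes, was nearest to Cyp4a10 (r = 0.80) and to Cyp4a31 (r = 0.77). Hsd17b11, a lipid droplet dehydrogenase, was nearest to Cyp4a14 (r = 0.75), and Aldh3a2, the fatty aldehyde dehydrogenase, to Acot1 (r = 0.71). Lrp4 was nearest to Acot3 (r = 0.79) and to Acot4 (r = 0.83), and Cux2 and Amigo2 were the next for both. Dusp3 was nearest to Acot2 at 0.94, which became 0.67 after group and set means were removed. These are Pearson correlations over 46 samples, the highest of 13542 genes by construction.

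Acot3 also stood out by the Y-linked level, which was not a design factor. It ran from 7.67 through a median of 8.58 to 9.69 in the 14 samples with low Y-linked levels and from 6.55 through 7.76 to 9.70 in the 32 with high levels. The means were 8.49 and 7.83, a difference of 0.67 that 27 genes equalled or exceeded in size, Acot3 included. Cux2, a transcription factor known as more abundant in female than in male liver, differed by 0.65 in the same direction. Within set A the Acot3 means were 7.98 in low and 7.76 in high samples, and within set B 8.70 and 7.88. Acot4 differed by 0.27 and the other 5 genes by -0.10 to 0.14. Of the family members outside the 7, Cyp4a12a and Cyp4a12b, the known male-type Cyp4a genes, differed by -2.01 and -1.81, with Cyp4a12a at 4.33 to 5.47 in the low and 4.23 to 10.68 in the high samples. With the Y-linked level as a covariate ATF7+/+ against wild-type was -0.41 ± 0.24 for Acot3 and -0.41 ± 0.14 for Acot4 (SE; limma adjusted p = 0.561 and 0.219).

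Other genes of the pathway were read from fixed lists, beside the 3.6% of all genes that passed in the wild-type diet comparison. Ppara itself differed by 0.00 ± 0.12 in wild-type offspring (SE; limma adjusted p = 1), and 0 of 19 measured genes of PPARA and its partners passed. Of 23 genes of peroxisomal fatty acid oxidation 2 rose: Hacl1, which shortens branched and hydroxylated acyl chains, by 0.67 ± 0.12, and Abcd3, a peroxisomal importer, by 0.46 ± 0.11 (SE; limma adjusted p = 0.000303 and 0.0149). The list's median difference was 0.07, beside 0.00 over all genes. None of 16 mitochondrial oxidation and ketogenesis genes passed. Of 18 other PPARA targets 2 rose, Me1, the malic enzyme that supplies NADPH, by 0.98 ± 0.27 and Tmem135 by 0.46 ± 0.08 (SE; limma adjusted p = 0.0269 and 0.000327).

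Markers of other liver cells were also higher in that comparison. All 11 stellate cell and fibroblast markers were above 0, with a median difference of 0.25, and 2 rose: Lrat, which stores vitamin A as esters, by 0.53 ± 0.15 and Reln by 0.42 ± 0.12 (SE; limma adjusted p = 0.0352 and 0.0368). Their summed level ran from 12.32 to 12.84 after control-diet and from 12.70 to 12.93 after low-protein sires. All 10 liver endothelial markers were above 0, with a median of 0.13, and Cdh5, the cadherin of endothelial junctions, rose by 0.34 ± 0.08 (SE; limma adjusted p = 0.0105), while the summed level ran from 12.29 to 13.08 and from 12.60 to 12.93. Of 6 erythroid markers 2 were tested and both were above 0, and Alas2, the heme synthesis enzyme of red cell precursors, rose by 0.84 ± 0.22 (SE; limma adjusted p = 0.0196); the summed level ran from 7.89 to 9.86 and from 8.56 to 9.79. The rises in mean summed level were larger in array set A than in set B. After control-diet and low-protein sires the stellate means were 12.50 and 12.90 in set A and 12.79 and 12.80 in set B. The endothelial means were 12.38 and 12.68 in set A and 12.73 and 12.82 in set B. For the erythroid markers they were 8.07 and 9.39 in set A and 8.53 and 8.97 in set B. Hepatocyte markers were above 0 in 4 of 9 and Kupffer cell markers in 3 of 10, and none of these passed. None of the markers tested was at 0. The part of these markers in the rises of the pathway genes, above and in the relatives that follow, was not tested.

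Among the nearest relatives 1 gene rose. Cyp4f14, a fatty acid hydroxylase of another Cyp4 subfamily, was higher after low-protein sires by 0.71 ± 0.15 in wild-type offspring (SE; limma adjusted p = 0.00321), the only one of 8 other Cyp4 genes tested. None of the 9 other acyl-CoA thioesterase genes tested passed, a list that holds Them4 and Baat beside Acot genes. A broad list of omega-oxidation partners had 12 genes tested, among them Cyb5a, Cyb5b, Ephx1 and Ephx2, which are not steps after Cyp4a. Of these 12 genes 2 rose, Aldh9a1 by 0.40 ± 0.09 and Acsl5, which activates fatty acids, by 0.62 ± 0.15 (SE, limma adjusted p = 0.00829 and 0.0142). Of 16 clock genes 1 fell, Tef, a clock output factor, with a difference of -0.77 ± 0.23 (SE, limma adjusted p = 0.0468). In array set A Tef averaged 9.22 after control-diet and 7.69 after low-protein sires, and in set B 8.21 and 7.98. The set B ranges overlapped, at 7.93 to 8.55 and 7.22 to 8.95. No gene of these 8 lists passed in any of the other 8 comparisons. Acot5 and Acot10 had mean levels of 4.02 and 5.0, under the filter of 5.46, and were not tested; Acot6 was tested at 5.86 and did not pass.

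From sample to sample, most of the 7 genes varied with the peroxisomal list, but not with that list alone. After group and set means were removed, the median correlation over its 23 genes was 0.48 with Cyp4a14, 0.47 with Acot1, 0.45 with Cyp4a10 and 0.35 with Cyp4a31 (n = 46), beside -0.02, -0.02, -0.03 and -0.03 over all genes. It was 0.23 with Acot3, 0.19 with Acot4 and 0.10 with Acot2. In the same gene order, the mitochondrial oxidation and ketogenesis list gave 0.29, 0.35, 0.31 and 0.27, then 0.17, 0.19 and 0.24. The other PPARA targets gave 0.25, 0.35, 0.32 and 0.26, then 0.14, 0.15 and 0.18. Within the peroxisomal list Eci2, a peroxisomal isomerase, was the highest for Acot1 at 0.82 and for Cyp4a14 at 0.80. Acaa1b, a peroxisomal thiolase, was the highest of that list for Acot3 (0.66) and Acot4 (0.69). These correlations share samples, arrays and list members and carry no test.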

How the data were processed

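Liver RNA was labelled with biotin and read on Affymetrix gene arrays. The authors deposited log2 values of each probe set, from RMA run in Affymetrix Expression Console according to the submitters' processing notes. The version, and whether the arrays were normalized as 1 batch, are not given in the sources used here. The values were taken as they stand. Precision is limited by the number of arrays, which have no read depth. The series describes the 8 experiments per group as biologically independent but names no litter or sire, so a shared sire or litter was not modelled.

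Of 35556 probe sets, 21789 carried 1 symbol, 1621 several, and 12146 were not listed. Genes with a mean at or above the 40th percentile (5.46) were kept, 13542 in all, with the probe set of highest mean standing for each gene. Arrays of 1 group and set whose difference on variable genes was under 1.5 times that on stable genes were averaged (1.29 in both pairs averaged, 1.90 to 5.01 in all others). Array sets were cut at the widest gap along principal component 1 of the 5591 unlisted probe sets that passed the filter.

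Group means were fitted with limma 3.58.1 in R 4.3.3, with 9 two-sided contrasts: 3 diet differences (1 per label), 3 contrasts of those between labels, and 3 label contrasts averaged over diet. The threshold was an adjusted p of 0.05 (Benjamini-Hochberg, over the 13542 genes). Intervals are at 95%. The package data.table, version 1.17.8, read the files. List levels are the log2 of summed linear values. The genes, the lists and the tests were chosen with earlier results of these data known. Genes named were the 7, Ppara, their family members, up to 3 genes with the smallest adjusted p per list and comparison, and the 3 genes most correlated with each of the 7; Atf7, Dbp, Arntl, Eci2 and Acaa1b were chosen outside that rule.

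Same-numbered samples of both diets correlated in ATF7+/- (r of deviations 0.18 to 0.74) and ATF7+/+ (0.30 to 0.67), and not in wild-type (-0.47 to 0.50). In ATF7+/- and ATF7+/+ every such pair lay in 1 array set, and with set means removed r was -0.04 to 0.38 and -0.16 to 0.35, so a pairing beyond the set was not shown. The fit had no replicate term, since the series calls the arrays independent; fits with a replicate block were run beside it. Tested on simulated data, the wild-type diet fit on 13542 genes found 80 of 100 genes set to a 1.5-fold change and 96 of 100 set to 2-fold. The changed genes were drawn at random, and the simulated noise was independent between genes and samples, without array sets. The within-group SD of the Acot genes lay between percentiles 92.3 (Acot4) and 99.7 (Acot2) of all genes. These shares therefore do not carry over to them. Promoter windows were read from RefSeq sequences (GRCm38.p6). Figures used matplotlib 3.10.9 and pandas 2.3.3 in Python 3.11.15.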

Additional observations from a re-analysis of the deposited data

Results flagged for a closer look

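Of 42 combinations of gene and group screened for a sample far from the others of its group, 2 were found, about as many as the 1 in 20 that chance gives. Cyp4a31 was 12.03 in replicate 5 of the ATF7+/- offspring of control-diet sires, where the next sample was 11.49. Acot4 was 10.05 in replicate 4 of the wild-type offspring of low-protein sires, where the next was 9.27; that sample was also the highest of its group in Acot1, Acot2, Acot3, Cyp4a10 and Cyp4a14.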

How the results depend on the processing

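With 1 sample left out at a time, 0 of the 7 genes passed in any of the 9 comparisons, and the same held under every other alternative run apart from those on array set A alone. In array set A alone 1 gene passed in the difference of diet differences between wild-type and ATF7+/- offspring, 3 in ATF7+/- minus ATF7+/+ and 2 in ATF7+/+ minus wild-type; with the Y-linked covariate, a fit added after seeing the data, 2 passed in each. Set A has 3 samples a group and set B 4 or 5, and neither split settles small differences. The replicate block gave 0 of 7 passing in every comparison; the block within each genotype label could not be fitted for the label comparisons. Over all genes the wild-type diet count, 487, went from 139 (groups compared alone) to 2118 (set A alone). With 1 sample left out at a time it was 219 to 589, the lowest without replicate 8 of the wild-type offspring of control-diet sires, the one sample that moved it by over 1.5 times.

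Signs turned as follows, none of them in a value that passed in the fit of 46 samples; causes were not tested. In the wild-type diet comparison, Cyp4a14 was -0.01 with array weights, -0.04 with all 48 arrays and -0.04 in set B; Cyp4a10 was -0.13, Acot2 -0.14 and Acot3 -0.63 in set A (Acot3 also -0.63 there with the Y-linked covariate), and Acot4 was 0.05 in set B. In ATF7+/- diet, Cyp4a31 was -0.01 in set B. In ATF7+/+ diet, Cyp4a10 was 0.05 with array weights, and set B gave Cyp4a10 0.13, Cyp4a14 0.07, Cyp4a31 0.11 and Acot2 -0.17. Between wild-type and ATF7+/- diet differences, Acot2 was -0.05 with the replicate block, -0.01 with the replicate block within each genotype label, -0.01 with all 48 arrays, -0.05 with the set as a block and -0.29 in set A; set B gave Cyp4a10 0.20 and Acot3 0.21, or Acot3 0.07 with the Y-linked covariate. Between wild-type and ATF7+/+ diet differences, Acot3 was 0.05 with array weights and 0.22 in set B, with or without the Y-linked covariate; Cyp4a14 was -0.02 with all 48 arrays and -0.11 in set B; and set A gave Acot1 -0.06 and Acot2 -0.45. Between ATF7+/+ and ATF7+/- diet differences, Acot2 was 0.15 in set A, and Cyp4a10 was 0.09 and Cyp4a31 0.12 in set B. In ATF7+/- minus wild-type, Acot3 was -0.10 with array weights and -0.08 in set A, with or without the Y-linked covariate, and Cyp4a10 was -0.08 in set A. In ATF7+/- minus ATF7+/+, Cyp4a14 was 0.01 with array weights and 0.07 in set B, Acot1 was 0.02 in set B, and set A gave Cyp4a10 -0.05, Cyp4a31 -0.11 and Acot2 0.03. In ATF7+/+ minus wild-type, array weights gave Cyp4a10 -0.04, Cyp4a14 -0.03, Cyp4a31 -0.06 and Acot2 0.21; Cyp4a10 was -0.03 in set A, and Cyp4a14 was -0.12 and Cyp4a31 -0.05 in set B.

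Leaving out single samples turned signs in 16 differences, all near 0. In the wild-type diet comparison the ranges were -0.04 to 0.19 for Cyp4a10, -0.08 to 0.06 for Cyp4a14 and -0.17 to 0.28 for Acot3. In ATF7+/+ diet they were -0.08 to 0.03 for Cyp4a14 and -0.11 to 0.35 for Acot2. Between wild-type and ATF7+/- diet differences they were -0.16 to 0.07 for Cyp4a10 and -0.19 to 0.30 for Acot2; between wild-type and ATF7+/+ -0.06 to 0.08 for Cyp4a14, -0.01 to 0.25 for Acot1 and -0.09 to 0.40 for Acot2; and between ATF7+/+ and ATF7+/- -0.34 to 0.12 for Acot2. In ATF7+/- minus wild-type the range was -0.09 to 0.15 for Acot3. In ATF7+/+ minus wild-type the ranges were -0.05 to 0.07 for Cyp4a10, -0.02 to 0.05 for Cyp4a14, -0.03 to 0.09 for Cyp4a31 and -0.18 to 0.06 for Acot2.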
